A study of Mus musculus with 24 samples.

Results

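Lung ischemia-reperfusion injury follows when blood flow and ventilation are stopped and then restored, as happens in lung transplantation. Returning oxygen and flow set off a stress response in the resident cells within minutes, recruit neutrophils over hours, and are followed by monocyte-derived macrophages, matrix remodelling and epithelial repair over days. The question addressed here is which RNAs of the old lung moved between the first hour and the first day of reperfusion. The comparison covers 8 of the 24 lung libraries of the series, chosen by their titles: 4 libraries of old lungs after 1 day of reperfusion (old 1 day) and 4 of old lungs after 1 h (old 1 h). All mice were male, wild-type and of the strain written C57BL6j in the sample labels and C57BL/6J in the design text. Old mice were 22 to 24 months of age. In both groups the artery, the vein and the bronchus of the left lung had been clamped together for 60 min before reperfusion. Old sham lungs (4 libraries of the same age) are given as the background level; how long after surgery they were taken is not given in the sources used here. Young mice of 8 to 12 weeks, with 4 libraries at 1 day and 4 at 1 h after the same clamping, served only to test whether a change differed with age.

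Whole-lung poly(A) RNA was sequenced with a stranded kit, so each value is an average over all cells of the sample. In such bulk RNA, fewer cells of a type and less RNA per cell cannot be told apart. The total of estimated reads was 30136663 to 33835569 in old 1 day libraries, 29144117 to 32909231 in old 1 h libraries and 29863241 to 43600154 in old sham libraries. Pearson correlations of log2 CPM between libraries were 0.973 to 0.988 within old 1 day, 0.983 to 0.993 within old 1 h, and 0.947 to 0.962 between the times. Sftpc, the surfactant gene that marks lung, was at 3380.4 CPM or more in each library of these groups. Levels are given as CPM (counts scaled to a common library total after TMM adjustment), in the order of replicates 1 to 4. Errors of CPM means are SD over 4 libraries. A log2 change is old 1 day over old 1 h unless another pair is named, with its standard error. Adjusted p-values are from edgeR's quasi-likelihood test over 19690 genes with Benjamini-Hochberg adjustment, and a gene was called at an adjusted p under 0.05. Nothing in the labels says that the libraries came from separate animals, so the p-values measure the spread between these samples, which may be technical.

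Between the times, 8859 genes were called, 45.0% of those tested. Of these, 4753 were higher in old 1 day lungs (24.1% of genes tested) and 4106 were lower (20.9%). Large changes were more often falls: 2047 genes (10.4%) were lower by more than 2-fold and 870 (4.42%) were higher by more than 2-fold. The median log2 change over all genes was 0.03. Among 39 lists of genes by function or cell type, heat shock, immediate early and NF-kB genes and markers of lymphocytes, ciliated cells and cardiac-type muscle were mostly lower at 1 day. Proteasome, ribosome biogenesis, matrix and recruited macrophage genes were mostly higher.

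**Figure D1:**
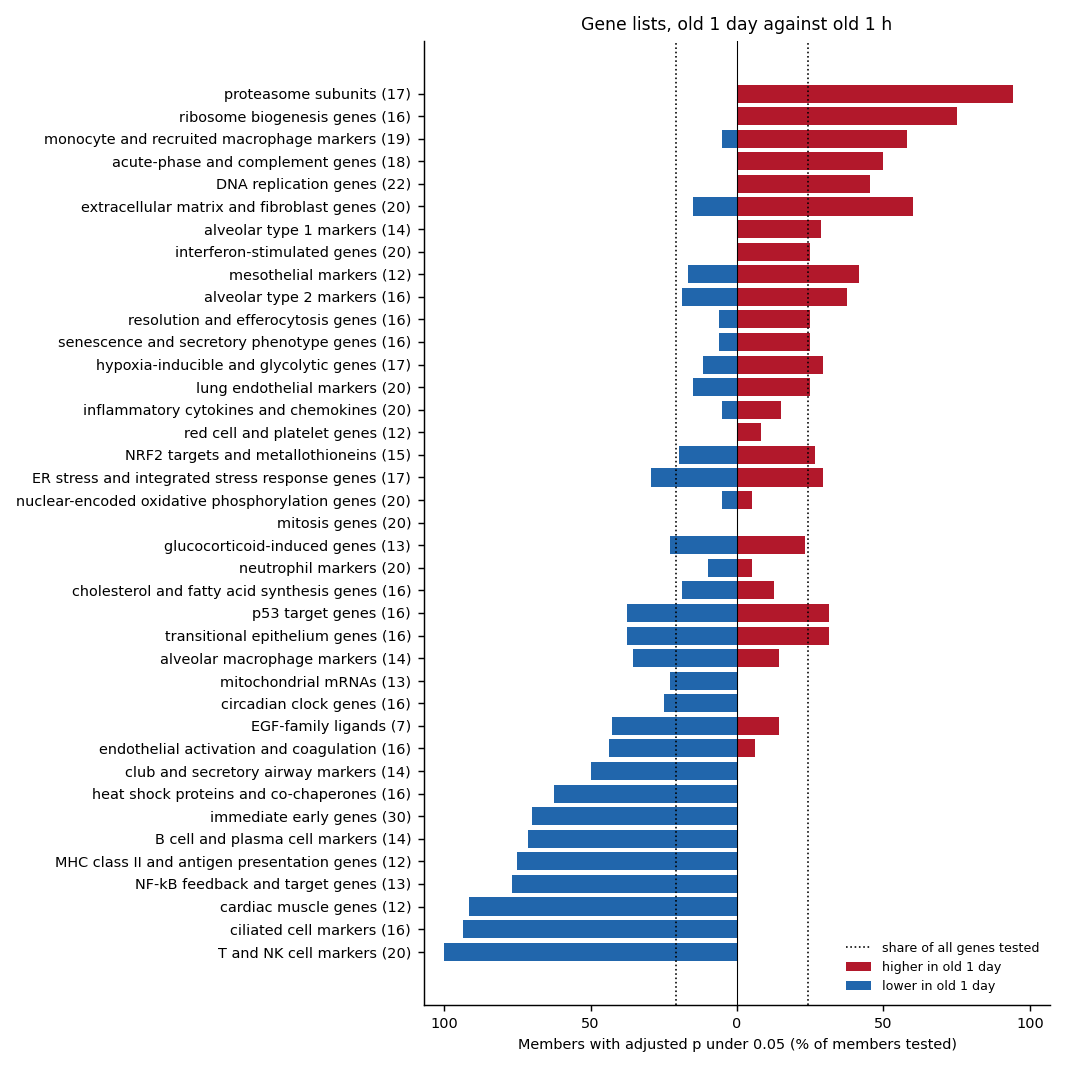
Share of the members of each of 39 gene lists that were called higher (red, to the right) or lower (blue, to the left) in old 1 day against old 1 h lungs, in percent of the members tested (number in parentheses); dotted lines mark the shares of all genes tested, 24.1% higher and 20.9% lower. All 20 T and NK cell markers were lower, and 16 of 17 proteasome subunits were higher.

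Heat shock genes were lower at 1 day than at 1 h. Heat shock proteins are chaperones that hold and refold damaged proteins, and their genes are driven by heat shock factor 1, which binds arrays of inverted GAA units. 10 of 16 members were lower in old 1 day than in old 1 h lungs and 0 were higher, with a median log2 change of -0.76. Against old sham, 14 members were higher at 1 h (12.6% of all genes were) and 8 were higher at 1 day (20.0% of all genes were), while 1 was lower (16.3%). The 8 higher at 1 day became 5 without old sham 4 and 10 without old 1 day 4. The comparisons with sham share the 1 h or the 1 day libraries with the direct one, so the values stand side by side and are not independent of each other.

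The pair of genes for the inducible chaperone HSP70 lie next to each other in the class III region of the major histocompatibility complex, Hspa1b at chr17:34956429-34959238 and Hspa1a at chr17:34969359-34972156 on mm10. Hspa1a had 32.1, 28.4, 38.3 and 25.4 CPM in old 1 day libraries, 1316, 1989.6, 1515 and 1019 CPM in old 1 h libraries and 16.9, 21.8, 18.7 and 12.3 CPM in old sham libraries. Hspa1b had 33.8, 23.3, 41.5 and 22.8 CPM at 1 day, 1341, 1929, 1466 and 943 CPM at 1 h and 15.8, 18.1, 18.6 and 11.96 CPM in sham. Every old 1 h library stood far above every library of the other groups. Hspa1a was 47.02-fold lower at 1 day than at 1 h (log2 change -5.56 ± 0.33, adjusted p = 3.3e-10) and Hspa1b 46.8-fold lower (log2 change -5.55 ± 0.34, adjusted p = 4.09e-10). Both were above old sham at 1 day, by a log2 change of 0.83 ± 0.28 (adjusted p = 0.0225) for Hspa1a and 0.92 ± 0.29 (adjusted p = 0.0157) for Hspa1b. Neither call against sham held without old 1 day 3, where the log2 changes were 0.69 and 0.71, or without old sham 4 (0.68 and 0.78), and that of Hspa1a was also lost without old sham 1 (0.81). The coding sequences of the pair are nearly identical, so the split of reads between them is uncertain.

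Their promoters are shown because they hold the same element. RefSeq promoter windows (GRCm38.p6, 250 bases before to 50 after the start) were searched on both strands for GAANNTTC, the unit of inverted GAA repeats, which is its own reverse complement. The capitals mark each match. Of 13 list members with a window in the table, 9 held it, against 9.04% of all 27025 genes with a window. A match is a description of the letters and not a bound site, and the motif was chosen with the results of the list known. The windows of Hspa1a (chr17:34972107-34972406, minus strand) and Hspa1b (chr17:34959189-34959488, minus strand) differ at 4 of 300 positions. Hsph1 (chr5:149636287-149636586, minus strand) is added for contrast, with its match after the start site.
Hspa1a: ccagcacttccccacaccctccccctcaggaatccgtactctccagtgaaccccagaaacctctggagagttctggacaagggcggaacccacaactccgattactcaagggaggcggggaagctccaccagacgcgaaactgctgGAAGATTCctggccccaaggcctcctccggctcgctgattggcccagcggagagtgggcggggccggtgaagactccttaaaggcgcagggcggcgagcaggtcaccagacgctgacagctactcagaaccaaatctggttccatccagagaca
Hspa1b: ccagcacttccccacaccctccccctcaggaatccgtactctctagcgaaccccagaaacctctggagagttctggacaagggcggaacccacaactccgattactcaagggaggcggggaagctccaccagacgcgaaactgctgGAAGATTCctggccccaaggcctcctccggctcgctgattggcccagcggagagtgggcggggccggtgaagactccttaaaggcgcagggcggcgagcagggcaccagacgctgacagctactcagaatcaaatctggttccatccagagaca
Hsph1: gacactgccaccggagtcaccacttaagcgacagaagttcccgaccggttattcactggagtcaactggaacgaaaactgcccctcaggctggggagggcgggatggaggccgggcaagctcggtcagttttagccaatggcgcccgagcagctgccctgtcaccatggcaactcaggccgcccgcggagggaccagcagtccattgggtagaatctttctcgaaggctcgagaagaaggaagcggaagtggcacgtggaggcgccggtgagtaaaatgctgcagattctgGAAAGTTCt

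Hsph1, which encodes a nucleotide exchange factor for HSP70 and was named after its values were seen, had 56.2, 34.8, 58.3 and 27.5 CPM in old 1 day libraries, 163, 272, 202 and 134 CPM in old 1 h libraries and 34.98, 32.2, 34.3 and 30.1 CPM in old sham libraries. The 1 h libraries lay above all others (log2 change -2.12 ± 0.23, adjusted p = 4.24e-07). Dnajb1, a J-domain partner of HSP70, had 43.7, 63.3, 60.4 and 48.4 CPM at 1 day, against 259.9, 378, 283 and 294 CPM at 1 h. Its 1 day range overlapped that of old sham, 37.1 to 56.4 CPM (log2 change -2.49 ± 0.16, adjusted p = 4.09e-10).

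Immediate early genes encode transcription factors and regulators that are transcribed within minutes of a stimulus and whose messages decay quickly. 21 of 30 were lower at 1 day than at 1 h and 0 were higher (median log2 change -1.39). Against old sham, 25 were higher at 1 h (12.6% of all genes were). At 1 day 7 were higher, a share near the 20.0% of all genes, and 2 were lower (16.3% of all genes were). The count at 1 day moved with single libraries: 3 were higher and 5 lower without old 1 day 2, 3 higher without old sham 1 or 4, and 4 without old 1 day 3 or old sham 3. Arc, a gene best known for its role at neuronal synapses, had 3.41, 1.59, 3.22 and 3.09 CPM in old 1 day libraries, 73.6, 85.5, 71.8 and 68.7 CPM in old 1 h libraries and 0.955, 1.43, 2.696 and 2.396 CPM in old sham libraries. At 1 day it was 26.4-fold lower than at 1 h (log2 change -4.72 ± 0.37, adjusted p = 1.47e-08), with the 1 day and sham ranges overlapping. Nr4a3, an orphan nuclear receptor, had 3.55, 9.43, 24.7 and 4.58 CPM at 1 day, 177, 377, 264 and 331 CPM at 1 h and 113, 99.3, 98.3 and 41.3 CPM in sham. It fell below sham: every 1 day library was under every sham library (log2 change -4.77 ± 0.50, adjusted p = 5.31e-07 against 1 h; log2 change -3.06 ± 0.47, adjusted p = 4.31e-05 against sham). Jund, a subunit of AP-1, had 222, 481, 304 and 285 CPM at 1 day against 973, 878, 989 and 1104 CPM at 1 h (log2 change -1.61 ± 0.18, adjusted p = 7.16e-07).

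The old 1 day libraries did not return to the same level for every early gene. Fosb, an AP-1 subunit, had 2.597, 231, 34.5 and 3.94 CPM in old 1 day libraries, 1245, 1973, 1856 and 2349 CPM in old 1 h libraries and 89.8, 362, 66.2 and 12.97 CPM in old sham libraries. Atf3, a stress-induced repressor and partner of AP-1, had 18.6, 134, 28.1 and 17.5 CPM at 1 day, 802, 1271, 1226 and 1383 CPM at 1 h and 63.5, 163, 55.7 and 24.9 CPM in sham. In both genes old 1 day 2 stood above the other 1 day libraries while all 1 day libraries stayed below all 1 h libraries. The log2 change was -4.77 ± 1.16 (adjusted p = 0.00247) for Fosb and -4.56 ± 0.63 (adjusted p = 1.25e-05) for Atf3. These were -7.07 and -5.77 without old 1 day 2. For Nr4a3 the log2 change without old 1 day 3 was -5.64 against 1 h and -3.94 against sham. The summed level of the list was 2638 to 13857 CPM at 1 day, 14383 to 21685 CPM at 1 h and 3192 to 8972 CPM in sham.

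NF-kB is a transcription factor of inflammation that induces its own inhibitors. 10 of 13 NF-kB feedback and target genes were lower at 1 day and 0 were higher (median log2 change -0.77). Against old sham 12 were higher at 1 h and 6 at 1 day, a count of 3 without old sham 4 and of 4 without old 1 day 2, 3 or 4 or old sham 1. Nfkb1, which encodes the p50 subunit, had 132, 147, 158 and 133 CPM at 1 day, 229, 233, 211 and 186 CPM at 1 h and 129, 144, 139 and 139.6 CPM in sham, so that the 1 day range overlapped that of sham (log2 change -0.59 ± 0.09, adjusted p = 2.41e-05). Birc3, an inhibitor of apoptosis, had 65.4, 148, 113 and 98.3 CPM at 1 day against 188, 224, 223 and 223 CPM at 1 h, with no overlap (log2 change -1.02 ± 0.18, adjusted p = 0.000136). Relb, a subunit of the non-canonical pathway, had 42.5, 58.8, 49.1 and 53.8 CPM at 1 day, 98.6, 83.7, 89.6 and 75.3 CPM at 1 h and 32.02, 39.2, 39.7 and 38.02 CPM in sham, with 1 day between the other groups and touching neither (log2 change -0.77 ± 0.16, adjusted p = 0.000708).

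Genes of endothelial activation and coagulation were partly lower. 7 of 16 fell between the times and 1 rose (median -0.44), while 12 were above old sham at 1 day. Thbs1, a matricellular protein of activated vessels and platelets, had 727, 1552, 3027 and 553 CPM in old 1 day libraries, 3264, 6032, 3844 and 5011 CPM in old 1 h libraries and 556, 947, 861 and 476 CPM in old sham libraries. The 1 day libraries spread widely but none reached the 1 h range (log2 change -1.63 ± 0.41, adjusted p = 0.00274; -2.28 without old 1 day 3). Plaur, the urokinase receptor, had 84.97, 168, 183 and 94.2 CPM at 1 day, 273, 230.2, 231 and 273 CPM at 1 h and 58.4 to 94.1 CPM in sham, so that the 1 day range lay under that of 1 h and overlapped that of sham (log2 change -0.93 ± 0.21, adjusted p = 0.00111). Thbd, the anticoagulant receptor thrombomodulin, behaved in another way, with 402, 620.0, 542 and 508 CPM at 1 day, 1127, 986, 957 and 845 CPM at 1 h and 775, 921, 908 and 811 CPM in sham. Its 1 day libraries were below both other groups (log2 change -0.92 ± 0.13, adjusted p = 9.34e-06 against 1 h; log2 change -0.72 ± 0.13, adjusted p = 0.00017 against sham).

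Ligands of the EGF receptor, which signal epithelial repair, changed in both directions: 3 of 7 tested fell and 1 rose (median -0.27). Areg, amphiregulin, had 11.6, 28.2, 21.8 and 9.35 CPM at 1 day, 37.2, 50.7, 57.8 and 44.2 CPM at 1 h and 4.31, 5.56, 6.42 and 3.19 CPM in sham (log2 change -1.42 ± 0.32, adjusted p = 0.0013). Hbegf, heparin-binding EGF, had 101, 92.2, 102 and 81.4 CPM at 1 day against 164, 179, 149 and 162 CPM at 1 h (log2 change -0.80 ± 0.16, adjusted p = 0.000484). In both genes the times did not overlap. Both were above sham at 1 day, Areg by a log2 change of 1.87 ± 0.34 (adjusted p = 0.000227) and Hbegf by 0.94 ± 0.16 (adjusted p = 0.000138). Tgfa, transforming growth factor alpha, took the opposite course. It had 29.1, 30.9, 40.97 and 38.4 CPM at 1 day, 19.6, 16.98, 17.2 and 19.8 CPM at 1 h and 26.6, 28.4, 24.2 and 22.4 CPM in sham, with every 1 day library above every library of both other groups (log2 change 0.92 ± 0.12, adjusted p = 5.64e-06).

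Of 17 genes of ER stress and the integrated stress response, 5 rose and 5 fell (median 0.09), shares near the 24.1% and 20.9% of all genes. Single members moved in both directions. Atf4, the transcription factor of the integrated stress response, had 238, 322, 296 and 244 CPM in old 1 day libraries and 451, 478, 415 and 455 CPM in old 1 h libraries (log2 change -0.71 ± 0.12, adjusted p = 5.15e-05), while its target Asns, asparagine synthetase, had 34.8, 29.4, 43.1 and 45.1 CPM at 1 day and 21.7, 18.3, 22.4 and 22.8 CPM at 1 h (log2 change 0.84 ± 0.15, adjusted p = 9.58e-05). Messages of regulator and target moved in opposite directions, in ranges that did not overlap between the times. Herpud1, which helps remove misfolded proteins from the ER, had 154, 186, 169 and 186 CPM at 1 day, 382, 381, 354 and 349 CPM at 1 h and 263, 305, 255 and 265 CPM in sham, with every 1 day library under every sham library (log2 change -1.08 ± 0.11, adjusted p = 2.63e-07 against 1 h). Of 16 p53 targets, 5 rose and 6 fell (median -0.37). Gadd45a, a growth arrest gene, had 15.7, 30.6, 22.4 and 19.6 CPM at 1 day against 67.6, 49.98, 50.3 and 52.3 CPM at 1 h (log2 change -1.32 ± 0.16, adjusted p = 2.49e-06), whereas Zmat3, an RNA-binding p53 target, had 38.7, 35.2, 47.7 and 49.9 CPM at 1 day against 19, 20.8, 21.5 and 21.1 CPM at 1 h (log2 change 1.06 ± 0.11, adjusted p = 2.7e-07). Neither gene's ranges overlapped between the times.

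Of 15 NRF2 targets and metallothioneins, which serve antioxidant defence, 4 rose and 3 fell (median 0.23). These shares were near the 24.1% and 20.9% of all genes. The rises were 2 without old 1 day 3, and the falls 1 without old 1 day 1. Osgin1, an oxidative stress response gene, had 31.7, 48.9, 50.7 and 53.9 CPM at 1 day, 94.2, 136, 74.9 and 110.4 CPM at 1 h and 44.8, 50.1, 58.2 and 37.6 CPM in sham, with 1 day under 1 h and in the range of sham for all but old 1 day 1 (log2 change -1.16 ± 0.19, adjusted p = 4.54e-05). Hmox1, heme oxygenase 1, had 176, 176, 287 and 108 CPM at 1 day, 109.7, 110.3, 102 and 79.8 CPM at 1 h and 35.97, 32.7, 54.5 and 37.5 CPM in sham. Every library at both times was above every sham library, the ranges of the times overlapped at old 1 day 4, and the difference between the times (log2 change 0.89 ± 0.26, adjusted p = 0.00746) was not called without old 1 day 3 (0.60). Of 13 glucocorticoid-induced genes, 3 rose and 3 fell (median -0.04), shares near those of all genes. Angptl4, an inhibitor of lipoprotein lipase, had 122, 193, 198 and 217 CPM at 1 day against 88.1, 80.1, 83.1 and 51.4 CPM at 1 h (log2 change 1.27 ± 0.29, adjusted p = 0.00147), and Errfi1, a feedback inhibitor of the EGF receptor, had 224, 499, 403 and 268 CPM at 1 day against 626, 789, 1109.8 and 1058 CPM at 1 h (log2 change -1.36 ± 0.26, adjusted p = 0.00027), both without overlap.

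Alveolar type 1 cells form the thin gas exchange surface, and their markers were below old sham at 1 h. Of 14 type 1 markers, all 14 were lower than old sham at 1 h (12.6% of all genes were), and 4 rose and 0 fell between the times (median 0.17), a share of rises near the 24.1% of all genes. When old 1 day 4 was left out, or with only the 8 libraries fitted, 2 rose, and with limma on TPM 7. At 1 day 11 were below sham (7 without old 1 day 3 or old sham 2) and 1 was above. Pdpn, podoplanin, had 204, 144, 162 and 213 CPM at 1 day, 83.9, 74.7, 83.8 and 95.9 CPM at 1 h and 141, 146, 106 and 120.1 CPM in sham, with every 1 h library under all others (log2 change 1.10 ± 0.14, adjusted p = 2.48e-06). Aqp5, the water channel aquaporin 5, had 401, 248, 248 and 290.3 CPM at 1 day, 175, 168, 183 and 228 CPM at 1 h and 280.1, 301, 244 and 225 CPM in sham (log2 change 0.66 ± 0.14, adjusted p = 0.000642), so that the 1 day libraries were in the sham range or above it, while those at 1 h, except old 1 h 4, were below it. Cldn18, a tight junction protein, had 350.3, 328, 333 and 399.9 CPM at 1 day, 243, 218, 264 and 337 CPM at 1 h and 479, 536, 437 and 382 CPM in sham; its 1 day range overlapped that at 1 h (log2 change 0.41 ± 0.12, adjusted p = 0.00965), and the call was lost without old 1 day 4 (0.34). The summed level of the list was 5913 to 7238 CPM at 1 day, 4969 to 6598 CPM at 1 h and 7796 to 9686 CPM in sham, so that the times overlapped.

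Alveolar type 2 cells make surfactant and renew the epithelium. Of 16 markers, 6 rose (24.1% of all genes did) and 3 fell between the times (median 0.36). The share of falls was near the 20.9% of all genes. The summed level of the list was 13275 to 24646 CPM at 1 day, 13584 to 23293 CPM at 1 h and 22859 to 30142 CPM in sham, so that the times overlapped. Slc34a2, the phosphate transporter of these cells, had 1789.9, 1843, 840.5 and 2072 CPM in old 1 day libraries, 230.0, 518, 693 and 844 CPM in old 1 h libraries and 1407, 1618, 1691 and 1406 CPM in old sham libraries. Old 1 day 1, 2 and 4 stood above all at 1 h, and old 1 day 3 did not (log2 change 1.52 ± 0.30, adjusted p = 0.000396). Sftpd, surfactant protein D, had 879.8, 984, 477 and 1320.1 CPM at 1 day, 269, 318, 508 and 380.0 CPM at 1 h and 439, 587, 640.2 and 358 CPM in sham, with the same library low (log2 change 1.31 ± 0.23, adjusted p = 0.000128). Sftpc, surfactant protein C, had 5169, 4169, 3380.4 and 4044 CPM at 1 day, 4305, 4692, 7093 and 6639 CPM at 1 h and 8899.7, 10982, 9909 and 7341 CPM in sham. All libraries at both times were below all sham libraries, the times overlapped, and the further fall at 1 day (log2 change -0.44 ± 0.18, adjusted p = 0.0471) was not called when any 1 of old 1 day 2, 3 or 4 or old 1 h 3 or 4 was left out (-0.44 to -0.31). Hc, complement component 5, had 171, 126, 99.7 and 119 CPM at 1 day, 203, 252, 490.3 and 304 CPM at 1 h and 339, 526, 422 and 405 CPM in sham, lower at 1 day than in every library of both other groups (log2 change -1.28 ± 0.26, adjusted p = 0.000411).

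Mesothelial cells cover the lung surface. Of 12 mesothelial markers, 5 rose and 2 fell between the times (median 0.64), and 5 were below old sham at 1 h. Log2 changes of the members ranged from -1.54 to 2.90, and the genes described here are among those that rose. The summed level of the list was 484 to 799 CPM at 1 day and 517 to 610 CPM at 1 h, so that the times overlapped. Aldh1a2, a retinoic acid synthase, had 12.6, 7.395, 24.96 and 23.5 CPM at 1 day, 4.06, 5.69, 6.98 and 4.98 CPM at 1 h and 58.3, 17.6, 22.4 and 8.303 CPM in sham (log2 change 1.66 ± 0.46, adjusted p = 0.0064). Lrrn4, a membrane protein of mesothelium, had 10.9, 4.19, 12.5 and 16.6 CPM at 1 day, 2.92, 4.07, 2.23 and 2.67 CPM at 1 h and 67.2, 16.8, 25.02 and 6.6 CPM in sham (log2 change 1.89 ± 0.63, adjusted p = 0.0192). In both genes all 1 day libraries lay above the 1 h range and the sham libraries spread widely. Wt1, the transcription factor of mesothelium, had 1.95, 1.21, 14.4 and 4.06 CPM at 1 day against 0.569, 1.65, 0.491 and 0.836 CPM at 1 h, with overlap (log2 change 2.59 ± 0.71, adjusted p = 0.00535). The call of Wt1 was lost without old 1 day 3 (1.42), and that of Lrrn4 without old 1 day 4 (1.63) or old 1 h 3 (1.78).

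The next genes were called above old sham at 1 h and at 1 day. Prss22 and Adamts4 were picked for an absolute log2 change under 0.5 between the times, and Cdkn1a was taken by name. A small difference was thus a condition of the choice and not a result. The differences of these genes are given with 95% confidence intervals, since a p that misses the threshold does not show equal levels. Prss22, a serine protease of airway epithelium, had 6.897, 10.9, 6.88 and 8.77 CPM in old 1 day libraries, 10.4, 5.23, 5.37 and 2.96 CPM in old 1 h libraries and 0.277, 0.0551, 0 and 0.2102 CPM in old sham libraries. The log2 change between the times was 0.48 ± 0.55 (interval -0.66 to 1.63), with every library at both times above every sham library. Adamts4, an aggrecan-cleaving protease, had 30.4, 541, 250.4 and 211 CPM at 1 day, 223, 242, 305 and 242 CPM at 1 h and 9.22, 36.9, 27.6 and 8.09 CPM in sham (log2 change 0.03 ± 0.56, interval -1.15 to 1.21). At 1 day old 1 day 1 was inside the sham range while the other libraries were not. Cdkn1a, the cell cycle inhibitor p21, had 154, 538, 416 and 294 CPM at 1 day, 234, 249.6, 501 and 286 CPM at 1 h and 108, 148, 80.5 and 110.0 CPM in sham (log2 change 0.14 ± 0.30, interval -0.47 to 0.76). It was above sham by a log2 change of 1.65 ± 0.30 at 1 day (adjusted p = 0.000276) and 1.51 ± 0.30 at 1 h (adjusted p = 0.00103).

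**Figure D2:**
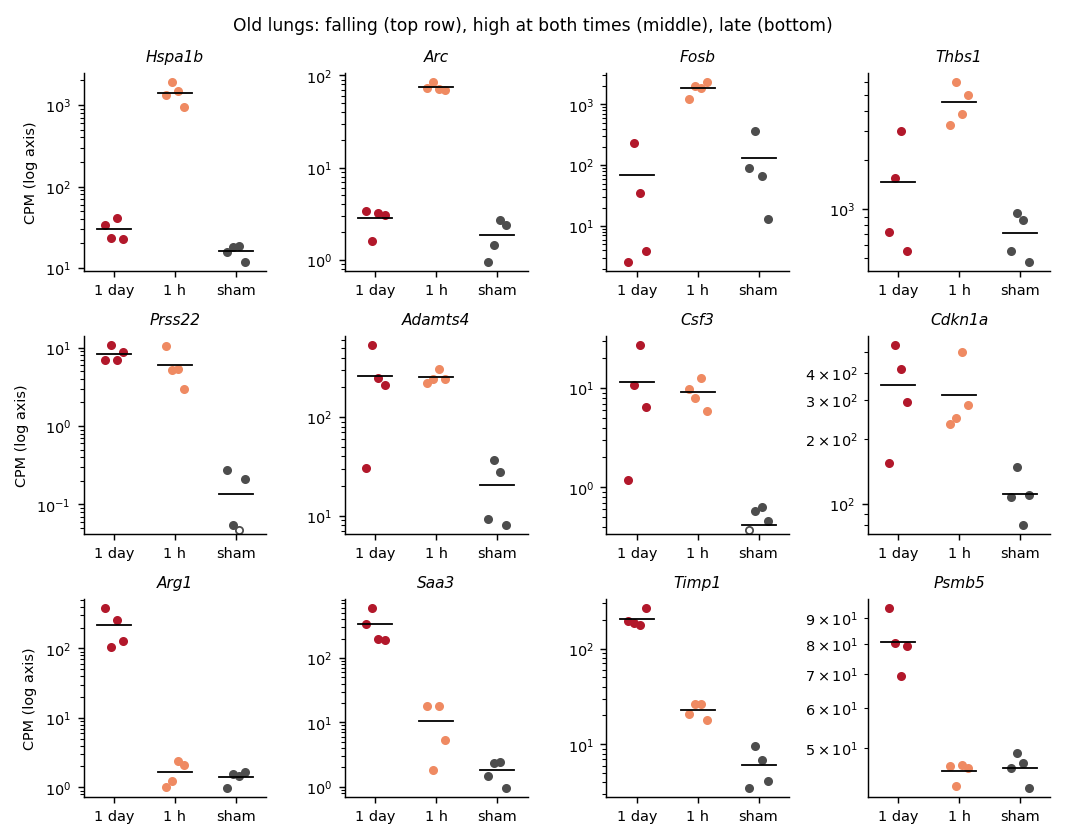
CPM (log axis) of 12 genes in each library of old 1 day, old 1 h and old sham lungs; each point is a library, each bar the mean of 4, and open points on the lower edge are libraries at 0. Top row, genes lower at 1 day than at 1 h; middle row, genes above sham at both times; bottom row, genes higher at 1 day, such as Arg1 with 106 to 385 CPM at 1 day and 0.996 to 2.39 CPM at 1 h.

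Cytokine genes varied widely between the 1 day libraries. Csf3, the neutrophil growth factor G-CSF, had 1.17, 10.9, 27.4 and 6.45 CPM at 1 day, 9.89, 7.9, 12.6 and 5.95 CPM at 1 h and 0, 0.579, 0.636 and 0.462 CPM in sham. Ptx3, a long pentraxin, had 1.51, 2.32, 143 and 0.825 CPM at 1 day, 27.1, 46.1, 61.1 and 23.2 CPM at 1 h and 0.308, 0.771, 0.151 and 3.62 CPM in sham, so its mean at 1 day came from old 1 day 3. Without that library Ptx3 was lower at 1 day than at 1 h by a called log2 change of -4.68, and its log2 change against sham was 0.25 in place of 4.83 ± 1.37. Il6, interleukin 6, had 1.65, 73, 78.5 and 7.98 CPM at 1 day, 85.7, 114, 138 and 116 CPM at 1 h and 18, 54.2, 31.1 and 6.68 CPM in sham (log2 change -1.50 ± 0.76, adjusted p = 0.118). Cxcl1, a chemokine for neutrophils, had 8.71, 49.96, 218 and 22.3 CPM at 1 day and 96.5, 75.99, 92.7 and 67.6 CPM at 1 h (log2 change -0.16 ± 0.66, adjusted p = 0.869); without old 1 day 3 it was lower at 1 day, by a called log2 change of -1.64. Every 1 day library held less Il6 than any 1 h library although the difference was not called, and for Cxcl1 every 1 day library except old 1 day 3 did. Of 20 inflammatory cytokine genes, 3 rose and 1 fell between the times (median 0.19), but without old 1 day 3, 0 rose and 4 fell, and without old 1 h 4, 1 rose. Cxcl5, a chemokine of alveolar epithelium, had 14.2, 8.57, 78.2 and 9.08 CPM at 1 day against 4.06, 4.45, 12.7 and 1.99 CPM at 1 h, ranges that overlapped (log2 change 2.25 ± 0.73, adjusted p = 0.0167), a call lost without old 1 day 3 (0.86) or old 1 h 4 (1.96). Without old 1 h 3 its log2 change was 2.97. Cxcl10, an interferon-induced chemokine, had 16.9, 7.71, 11.2 and 2.54 CPM at 1 day against 20.8, 31.3, 30.2 and 29.1 CPM at 1 h, with no overlap (log2 change -1.54 ± 0.53, adjusted p = 0.0221), a call lost without old 1 day 2 (-1.45) or old 1 day 4 (-1.23).

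In the fit over all libraries most neutrophil markers were above old sham at both times. Of 20 markers, 19 were higher than sham at 1 h (10 without old 1 h 1) and 14 at 1 day (6 without old 1 day 2 and 7 or 8 without old sham 1, 3 or 4), and between the times 1 rose and 2 fell (median -0.47). Without old 1 day 2, 6 fell, and without old 1 h 1, 3 rose. The summed level was 2222 to 11332 CPM in old 1 day libraries, 2517 to 9642 CPM in old 1 h libraries and 1269.5 to 1731 CPM in old sham libraries. The member that rose was Lcn2 (log2 change 3.26), also listed with the acute-phase genes, where its values are given. It makes up part of the summed level at 1 day. The members that fell were Csf3r and Hdc. Csf3r, the G-CSF receptor, had 148, 242, 372 and 246 CPM at 1 day and 755, 382, 443 and 684 CPM at 1 h (log2 change -1.17 ± 0.29, adjusted p = 0.00283). Hdc, the enzyme that makes histamine, had 88.4, 139, 155 and 95.9 CPM at 1 day and 388, 164, 246 and 271 CPM at 1 h (log2 change -1.16 ± 0.27, adjusted p = 0.00138). For both, every 1 day library was below every 1 h library. Granule genes, which are transcribed in immature cells, varied between libraries. Camp, cathelicidin, had 3.04, 69.2, 0.318 and 1.07 CPM at 1 day, 76.5, 0.218, 1.38 and 0.193 CPM at 1 h and 0, 1.24, 0 and 0.547 CPM in sham, so 1 library carried it at each time. Its log2 change was -0.09 ± 1.45, and 4.95 without old 1 h 1. Against sham it was 1.67 at 1 day without old 1 day 2 and 0.37 at 1 h without old 1 h 1, neither of them called. Ltf, lactoferrin, had 439, 385, 20.3 and 117 CPM at 1 day, 412, 138, 108 and 96.01 CPM at 1 h and 4.87, 7.41, 3.998 and 17.2 CPM in sham (log2 change 0.35 ± 1.03, interval -1.80 to 2.51).

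Some falls below sham were also called at both times, in genes picked with the same limit on the change between the times. Gas1, a growth arrest gene of fibroblasts, had 12.2, 4.57, 5.44 and 9.902 CPM in old 1 day libraries, 4.198, 5.41, 7.47 and 5.66 CPM in old 1 h libraries and 26.8, 16.9, 21.1 and 14.97 CPM in old sham libraries. All libraries at both times were below all sham libraries, and the difference between the times had an interval of -0.05 to 1.04; without old 1 day 2 it was called as a partial rise (0.69). Lyz1, a lysozyme gene, had 114, 110.1, 98.9 and 95.1 CPM at 1 day, 99.2, 122, 159 and 144 CPM at 1 h and 241, 256, 556 and 159 CPM in sham (log2 change -0.33 ± 0.28, interval -0.91 to 0.26), with every 1 day library under every sham library. Cyp1a1, a target of the aryl hydrocarbon receptor, had 0.866, 1.62, 2.99 and 1.71 CPM at 1 day, 0.889, 1.34, 1.08 and 3.12 CPM at 1 h and 1.603, 1.598, 68.4 and 2.48 CPM in sham. Its calls against sham rested on old sham 3: without it the log2 change was -0.09 at 1 day and -0.24 at 1 h.

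Symbols of predicted genes and clones were left out of the ranking of rises. Among the other called genes that averaged at least 5 CPM in 1 of the groups, without overlap, Arg1 rose most between 1 h and 1 day. Arg1 (chr10:24915207-24927470 on mm10) encodes arginase 1, an arginine-consuming enzyme of recruited and alternatively activated macrophages. It had 385, 106, 255 and 128 CPM in old 1 day libraries, 0.996, 1.24, 2.39 and 2.09 CPM in old 1 h libraries and 0.986, 1.57, 1.45 and 1.64 CPM in old sham libraries. The level at 1 h overlapped the sham range and that at 1 day was 129-fold above 1 h (log2 change 7.02 ± 0.58, adjusted p = 4.03e-08). In young lungs Arg1 averaged 298 ± 213 CPM at 1 day and 1.22 ± 0.276 CPM at 1 h. Of 19 monocyte and recruited macrophage markers, 11 rose and 1 fell (median 0.81), and 17 were above sham at 1 day against 5 at 1 h. The summed level of the list was 3165 to 5142 CPM at 1 day, 2249 to 2634 CPM at 1 h and 1530.1 to 1898 CPM in sham, 3 ranges that did not overlap. Gpnmb, a glycoprotein of lipid-laden macrophages, had 55.98, 61.4, 41.2 and 64.7 CPM at 1 day against 14.9, 24.9, 28.5 and 24.7 CPM at 1 h (log2 change 1.26 ± 0.17, adjusted p = 5.76e-06). Lgals3, galectin 3, had 453, 449.9, 476 and 349.8 CPM at 1 day, 276, 202, 189 and 185 CPM at 1 h and 107, 152, 124 and 113 CPM in sham, with no overlap between the groups (log2 change 1.02 ± 0.13, adjusted p = 2.52e-06). Trem2, a lipid receptor of macrophages, had 23.98, 6.79, 7.54 and 8.25 CPM at 1 day and 4.87, 2.71, 3.504 and 2.86 CPM at 1 h (log2 change 1.74 ± 0.34, adjusted p = 0.000327; 1.11 without old 1 day 1). For Gpnmb and Trem2 too, every 1 day library was above every 1 h library.

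Marco, a scavenger receptor of macrophages, had 62.7, 126, 84.96 and 108 CPM at 1 day, 11.7, 7.34, 7.01 and 5.92 CPM at 1 h and 2.47, 4.08, 30.8 and 1.98 CPM in sham (log2 change 3.58 ± 0.64, adjusted p = 0.000159), with old sham 3 above the other sham libraries. Marco is also a marker of resident alveolar macrophages. Of 14 markers of those cells, 2 rose and 5 fell (median -0.14). Their log2 changes ranged from -1.70 to 3.58, the value of Marco, so that Marco does not stand for the list. Of 16 genes of resolution and efferocytosis, 4 rose and 1 fell (median 0.06), a share of rises near the 24.1% of all genes. Tgm2, transglutaminase 2, had 856, 1470.1, 1308 and 1322 CPM at 1 day, 828, 682, 795 and 658 CPM at 1 h and 468, 576, 508 and 496 CPM in sham (log2 change 0.74 ± 0.14, adjusted p = 0.000203). Pf4, a chemokine of platelets and some macrophages, had 87.8, 41.9, 107 and 62.5 CPM at 1 day, 17.6, 18.1, 21.1 and 16.4 CPM at 1 h and 14.7, 15.5, 15.3 and 14.9 CPM in sham (log2 change 2.03 ± 0.30, adjusted p = 1.72e-05). The 1 day libraries of Tgm2 and Pf4 were above all others. It was the 1 member of 12 red cell and platelet genes that rose, with 0 falling (median -0.33). Without old 1 day 1, 4 fell.

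Acute-phase proteins are made by liver and, under inflammatory cytokines, by lung epithelium. Of 18 acute-phase and complement genes, 9 rose and 0 fell between the times (median 0.63). Saa3, a local serum amyloid A, had 339, 599.6, 198 and 192 CPM in old 1 day libraries, 17.7, 1.804, 17.9 and 5.27 CPM in old 1 h libraries and 1.45, 2.34, 2.45 and 0.967 CPM in old sham libraries (log2 change 4.96 ± 0.79, adjusted p = 5.54e-05). Saa1 had 2.49, 9.27, 3.98 and 9.53 CPM at 1 day, 0.605, 0.498, 0.688 and 0.547 CPM at 1 h (log2 change 3.43 ± 0.66, adjusted p = 0.000271) and 0, 0.165, 0 and 0 CPM in sham. Lcn2, lipocalin 2, which binds bacterial siderophores, had 897, 3984, 1156 and 2992 CPM at 1 day, 437, 101, 231 and 173 CPM at 1 h and 80.1, 162, 153 and 82.6 CPM in sham (log2 change 3.26 ± 0.47, adjusted p = 1.82e-05). Serpina3n, a protease inhibitor, had 670.4, 1388, 1056 and 2113 CPM at 1 day against 196, 180.0, 236 and 189 CPM at 1 h (log2 change 2.71 ± 0.27, adjusted p = 2.64e-07). Orm1, orosomucoid, had 7.85, 44.8, 10.8 and 24.3 CPM at 1 day and 3.49, 1.46, 1.38 and 1.64 CPM at 1 h (log2 change 3.47 ± 0.77, adjusted p = 0.00109; 2.85 without old 1 day 2). In all of these genes every 1 day library stood above every 1 h library. Serpinb9b, a protease inhibitor of the serpin family, had 7.902, 6.16, 3.41 and 8.34 CPM at 1 day, 0.213, 0.5599, 0.688 and 0.547 CPM at 1 h and 0.524, 0.551, 0.909 and 0.378 CPM in sham (log2 change 3.67 ± 0.39, adjusted p = 3.6e-07). Its 1 h and sham ranges overlapped and its 1 day libraries were above both.

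Most matrix genes tested were higher at 1 day, and a few were lower. Of 20 extracellular matrix and fibroblast genes, 12 rose and 3 fell (median 0.95), and the summed level was 8633 to 11000.0 CPM at 1 day, 3699.5 to 6564 CPM at 1 h and 4767 to 6236 CPM in sham. Timp1, an inhibitor of metalloproteinases, had 193, 186, 176 and 266 CPM at 1 day, 20.5, 26.7, 26.6 and 17.8 CPM at 1 h and 3.51, 9.53, 6.81 and 4.18 CPM in sham (log2 change 3.17 ± 0.36, adjusted p = 1.27e-06). Each step lay outside the range of the one before. Mmp14, a membrane-bound collagenase, had 219, 396, 221 and 291 CPM at 1 day, 87.2, 114, 112 and 81.4 CPM at 1 h and 90.4, 89.9, 106 and 77.8 CPM in sham (log2 change 1.52 ± 0.17, adjusted p = 5.68e-07). Col4a2, a chain of basement membrane collagen, had 1288, 1492, 1529 and 1982 CPM at 1 day, 466, 600.2, 696 and 583 CPM at 1 h and 619.6, 881, 799.7 and 746 CPM in sham (log2 change 1.42 ± 0.15, adjusted p = 3.46e-07). In both the ranges at 1 h and in sham overlapped and all 1 day libraries were higher. Of 16 senescence and secretory phenotype genes, some of which also encode matrix enzymes, 4 rose and 1 fell (median 0.21). The share of rises was near the 24.1% of all genes. Mmp3, stromelysin 1, had 66.3, 112, 84.5 and 112 CPM at 1 day and 19.7, 45.9, 57.8 and 34.5 CPM at 1 h, with no overlap (log2 change 1.24 ± 0.25, adjusted p = 0.000417).

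Most genes of injured epithelium in transition between alveolar states were above sham at both times, with changes in both directions between them. Of 16 members, 5 rose and 6 fell between the times (median -0.15), while 14 were above sham at 1 h and 15 at 1 day. Krt7, a keratin of simple epithelium, had 741, 567, 611 and 660.1 CPM in old 1 day libraries, 219.6, 185, 213 and 239 CPM in old 1 h libraries and 284, 352, 254 and 255 CPM in old sham libraries, lowest at 1 h and highest at 1 day with no overlap (log2 change 1.59 ± 0.11, adjusted p = 1.15e-09). Sprr1a, a cornified envelope protein, had 30.4, 15.1, 53.6 and 14.6 CPM at 1 day, 1.74, 5.35, 5.04 and 1.93 CPM at 1 h and 0.185, 0.964, 0.424 and 0.252 CPM in sham (log2 change 3.01 ± 0.50, adjusted p = 7.31e-05). S100a14, a calcium-binding protein of epithelia, had 50.1, 47.8, 53.7 and 54.03 CPM at 1 day, 5.83, 5.01, 6.12 and 5.85 CPM at 1 h and 3.27, 7.66, 6.03 and 3.95 CPM in sham (log2 change 3.17 ± 0.24, adjusted p = 6.09e-09). For Sprr1a and S100a14 every 1 day library was above all others. S100a14 is no member of the list. The list members that fell include Areg, Hbegf and Plaur, described above.

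Genes for protein turnover and ribosome assembly were higher at 1 day. The proteasome degrades tagged proteins. 16 of 17 subunit genes rose and 0 fell, with a median log2 change of 0.46, and the summed level was 1568 to 1772 CPM at 1 day, 1152 to 1211 CPM at 1 h and 1111 to 1159.9 CPM in sham. Psmb5, the chymotrypsin-like catalytic subunit, had 94.3, 80.4, 69.2 and 79.5 CPM at 1 day, 46.1, 42.1, 46.2 and 45.7 CPM at 1 h and 45.6, 48.8, 46.6 and 41.7 CPM in sham (log2 change 0.84 ± 0.09, adjusted p = 2.8e-07). Psmc1, an ATPase of the cap, had 135, 145, 139 and 139 CPM at 1 day and 95.1, 89.9, 87.1 and 88.7 CPM at 1 h (log2 change 0.63 ± 0.06, adjusted p = 1.34e-07). Psmc4, another cap ATPase, had 100.4, 93.8, 103 and 97.4 CPM at 1 day and 70.9, 65.7, 67.95 and 69.3 CPM at 1 h (log2 change 0.53 ± 0.06, adjusted p = 8.98e-07). These changes were under 2-fold, with every 1 day library above every 1 h library. Of 16 ribosome biogenesis genes, 12 rose and 0 fell (median 0.45); without old 1 day 3, 7 rose. Nop2, an rRNA methyltransferase, had 39.4, 39.4, 60.8 and 34.2 CPM at 1 day against 22.4, 26.1, 23.2 and 21.2 CPM at 1 h (log2 change 0.90 ± 0.12, adjusted p = 5.86e-06), and Polr1b, a subunit of RNA polymerase I, had 27.9, 28.4, 37.8 and 23.6 CPM at 1 day against 14.7, 14.8, 15.7 and 15.9 CPM at 1 h (log2 change 0.95 ± 0.11, adjusted p = 1.47e-06). Old 1 day 3 was the highest library in both, and the times did not overlap.

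Of 17 hypoxia-inducible and glycolytic genes, 5 rose and 2 fell (median 0.15); without old 1 day 2, 3 rose and 4 fell. The share of rises was near the 24.1% of all genes. Eno1, enolase, had 425, 492, 398 and 307 CPM at 1 day, 261, 171, 170.4 and 207 CPM at 1 h and 131, 142, 151 and 164 CPM in sham (log2 change 1.00 ± 0.15, adjusted p = 2.37e-05). Ldha, lactate dehydrogenase A, had 444, 589, 520.0 and 385 CPM at 1 day against 333, 265, 279.5 and 259 CPM at 1 h (log2 change 0.77 ± 0.13, adjusted p = 8.45e-05), and Pgk1, phosphoglycerate kinase, had 209.9, 255, 195 and 151 CPM at 1 day against 138, 113, 100.5 and 105 CPM at 1 h (log2 change 0.83 ± 0.15, adjusted p = 0.000149). For these 3 enzymes the 1 day and 1 h ranges were apart. Of 16 cholesterol and fatty acid synthesis genes, 2 rose and 3 fell (median 0.11), a share of falls near the 20.9% of all genes. Without old 1 day 1, 5 fell.

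Of 20 interferon-stimulated genes, which carry antiviral functions, 5 rose and 0 fell (median 0.35), a share of rises close to the 24.1% of all genes. After leaving out old 1 day 2 or old 1 h 4, 2 rose, and without old 1 h 2, 3. Ifit3 had 61.3, 135, 78.4 and 93.03 CPM at 1 day and 43.97, 39.03, 47.8 and 35.1 CPM at 1 h (log2 change 1.15 ± 0.24, adjusted p = 0.000537). Ifit1 had 22.8, 59.3, 32.4 and 27.6 CPM at 1 day and 21.4, 20.9, 25.8 and 17.6 CPM at 1 h (log2 change 0.73 ± 0.24, adjusted p = 0.0157), with old 1 day 2 the highest in both and an overlap between the times for Ifit1 alone. The call of Ifit1 was lost without old 1 day 2 (0.37) or old 1 h 4 (0.65). Of 20 lung endothelial markers, 5 rose and 3 fell (median 0.05). The share of rises was near the 24.1% of all genes, and that of falls was under the 20.9%. These counts moved with single libraries: 1 rose and 1 fell without old 1 h 3, and 2 rose and 1 fell without old 1 day 4. Without old 1 h 4, 2 rose, without old 1 h 2, 3 rose, and without old 1 day 3, 1 fell. Log2 changes of the members ranged from -0.78 to 1.12, the value of Sox17. Sox17, a transcription factor of arterial endothelium, had 103, 181, 102 and 89.5 CPM at 1 day against 56.7, 58.1, 58.98 and 45.8 CPM at 1 h, with no overlap (log2 change 1.12 ± 0.23, adjusted p = 0.000499).

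Lymphocyte genes fell. All 20 T and NK cell markers were lower at 1 day than at 1 h (median -1.31), and 16 were also below old sham at 1 day. At 1 h 9 had been above sham. The summed level of the list was 158 to 199.6 CPM in old 1 day libraries, 387 to 469.9 CPM in old 1 h libraries and 249 to 315 CPM in old sham libraries, ranges that did not overlap. Cd8b1, a chain of the CD8 coreceptor, had 3.21, 3.87, 3.41 and 2.903 CPM at 1 day, 15.6, 8.65, 11.6 and 9.84 CPM at 1 h and 7.21, 9.26, 9.54 and 10.6 CPM in sham (log2 change -1.77 ± 0.18, adjusted p = 2.63e-07). Cd3d, a chain of the T cell receptor complex, had 4.77, 3.71, 5.22 and 3.73 CPM at 1 day and 14.8, 10.3, 9.76 and 8.75 CPM at 1 h (log2 change -1.32 ± 0.15, adjusted p = 6.83e-07). Prf1, perforin of cytotoxic cells, had 3.38, 3.27, 2.23 and 1.83 CPM at 1 day and 10.5, 8.12, 9.96 and 7.91 CPM at 1 h (log2 change -1.77 ± 0.21, adjusted p = 1.98e-06). In each of these genes the 1 day libraries lay below all 1 h libraries.

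Of 14 B cell and plasma cell markers, 10 fell and 0 rose (median -1.97), with a summed level of 88.9 to 448 CPM at 1 day, 698 to 1169 CPM at 1 h and 492 to 773 CPM in sham. Cr2, a complement receptor of B cells, had 5.67, 0.444, 2.83 and 1.83 CPM at 1 day, 10.4, 28.4, 19.4 and 16.01 CPM at 1 h and 8.48, 8.95, 10.3 and 14.3 CPM in sham (log2 change -2.77 ± 0.46, adjusted p = 6.15e-05; -3.43 without old 1 day 1). Blk, a kinase of the B cell receptor, had 10.5, 3.301, 13.5 and 7.95 CPM at 1 day against 22.4, 61.9, 37.01 and 40.6 CPM at 1 h (log2 change -2.20 ± 0.33, adjusted p = 2.1e-05), and Fcrla, an Fc receptor-like protein of B cells, had 6.45, 2.698, 7.67 and 3.54 CPM at 1 day against 10.8, 40.4, 21.6 and 24.2 CPM at 1 h (log2 change -2.25 ± 0.32, adjusted p = 1.19e-05). Old 1 h 1 was the lowest and old 1 h 2 the highest of the 1 h libraries in all 3 genes, and the times did not overlap. Of 12 genes of MHC class II and antigen presentation, 9 fell and 0 rose (median -0.93). H2-Ob, which tunes peptide loading in B cells, had 20.3, 6.76, 11.8 and 9.96 CPM at 1 day against 30.6, 108, 71.5 and 72.3 CPM at 1 h (log2 change -2.53 ± 0.31, adjusted p = 2.42e-06). H2-Eb1, a class II chain, had 444, 240.0, 247 and 234 CPM at 1 day, 544, 705, 624 and 564 CPM at 1 h and 552, 540.1, 598 and 545 CPM in sham (log2 change -1.07 ± 0.16, adjusted p = 2.41e-05). In both genes old 1 day 1 stood above the other 1 day libraries but below the range at 1 h. The part of a changed cell make-up in other results was not tested.

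Variable segments of immunoglobulin genes were called in both directions. Of 6 named here, 4 lost their call without 1 library. Igkv14-126 had 22.1, 0.73, 559 and 0.917 CPM in old 1 day libraries, 24.05, 4.98, 1.64 and 2.86 CPM in old 1 h libraries and 14.5, 4.57, 2.48 and 1.49 CPM in old sham libraries. Ighv11-2 had 8.54, 0.603, 237 and 0.672 CPM at 1 day and 8.395, 1.65, 0.589 and 1.19 CPM at 1 h, and Igkv11-125 had 0.1396, 0, 162 and 0.581 CPM at 1 day and 2.56, 0.622, 0.426 and 0.225 CPM at 1 h. Old 1 day 3 stood far above every other 1 day and 1 h library for the 3 segments. The log2 changes of 4.13 ± 1.39, 4.39 ± 1.36 and 5.42 ± 1.67 (adjusted p = 0.0209, 0.0129 and 0.0125) became -0.09, 0.15 and -1.98 without that library, and none was then called. Without old 1 h 1 they were 5.52, 5.75 and 6.56. Without old 1 h 2, 3 or 4 the call of Igkv14-126 was lost (3.78 to 3.94). The segments called lower at 1 day were also uneven between libraries. Ighv5-9-1 had 0.363, 0.222, 0.223 and 0.0611 CPM at 1 day and 30.9, 0.995, 2.29 and 0.514 CPM at 1 h (log2 change -5.28 ± 1.15, adjusted p = 0.000896; -2.51 without old 1 h 1). Igkv4-57-1 had 0.335, 0.0952, 0.668 and 0 CPM at 1 day, 12.6, 1.37, 1.28 and 11.03 CPM at 1 h and 0.616, 0.937, 4.69 and 42.9 CPM in sham (log2 change -4.56 ± 1.22, adjusted p = 0.00464; -5.45 without old 1 day 3). Ighv4-1 had 0.419, 0.635, 0.668 and 0.0306 CPM at 1 day and 41.2, 0.529, 0.458 and 2.154 CPM at 1 h (log2 change -4.65 ± 1.12, adjusted p = 0.00211), and its call was lost without old 1 h 1 (-1.25). Segments of a multigene family share sequence, so the assignment of reads to single segments is uncertain.

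**Figure D3:**
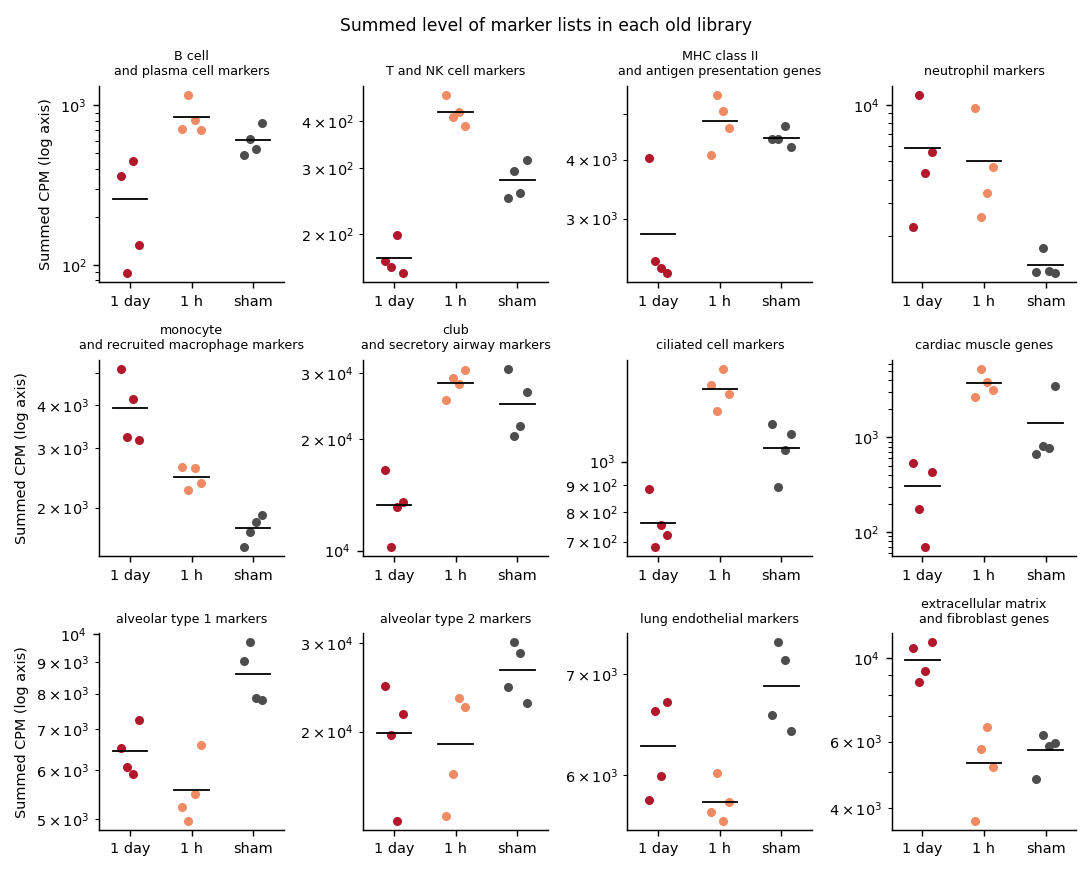
Summed CPM (log axis) of 12 lists of markers in each library of old 1 day, old 1 h and old sham lungs; each point is a library and each bar the mean of 4. T and NK cell, ciliated and club cell sums were lowest at 1 day with no overlap with 1 h. Recruited macrophage and matrix sums were highest at 1 day. Neutrophil sums, which include Lcn2, overlapped between the times.

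Airway genes fell at 1 day. Of 14 club and secretory airway markers, 7 fell and 0 rose (median -1.95), and the summed level was 10226 to 16429 CPM in old 1 day libraries, 25444 to 30671 CPM in old 1 h libraries and 20299 to 30917 CPM in old sham libraries. Cyp2f2, a monooxygenase that marks club cells, had 926, 197, 631 and 430.2 CPM at 1 day, 2328, 3256, 2922 and 3285 CPM at 1 h and 3392, 1912, 2195 and 3165 CPM in sham (log2 change -2.43 ± 0.33, adjusted p = 7.21e-06). Scgb3a2, a secretoglobin, had 126, 44.9, 92.95 and 60.97 CPM at 1 day, 482, 737, 680.5 and 634 CPM at 1 h and 399.8, 267, 493 and 700.0 CPM in sham (log2 change -2.96 ± 0.46, adjusted p = 3.61e-05). All 1 day libraries were below all others in both. Ciliated cells move mucus, and 15 of 16 of their markers fell while 0 rose (median -1.38). Tppp3, a tubulin-binding protein, had 129.9, 112, 119 and 115 CPM at 1 day, 359, 291, 398 and 343 CPM at 1 h and 318, 256, 277 and 272 CPM in sham (log2 change -1.55 ± 0.11, adjusted p = 4.3e-09). Dnah12, a dynein heavy chain of the cilium, had 18.9, 20.1, 14.4 and 15.4 CPM at 1 day against 65.7, 53.2, 55.1 and 57.8 CPM at 1 h (log2 change -1.75 ± 0.21, adjusted p = 1.83e-06). The summed level of ciliated markers was 684 to 887 CPM at 1 day, 1253 to 1515 CPM at 1 h and 893 to 1182 CPM in sham.

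Mouse pulmonary veins carry a sleeve of cardiac-type muscle. Genes of cardiac muscle had the lowest median change of the 39 lists, and the tissue they came from in these samples was not tested. Of 12 cardiac muscle genes, 11 fell and 0 rose (median -3.43). The summed level was 69.7 to 535 CPM at 1 day, 2642 to 5331 CPM at 1 h and 673 to 3487 CPM in sham. Actc1, cardiac actin, had 62.7, 7.78, 11.2 and 8.53 CPM at 1 day, 323, 773, 554 and 559 CPM at 1 h and 107, 111, 125 and 493 CPM in sham (log2 change -4.61 ± 0.78, adjusted p = 9.4e-05; -5.91 without old 1 day 1). Csrp3, a Z-disc protein, had 3.85, 0.222, 0.286 and 0.581 CPM at 1 day, 28.9, 71.8, 56.3 and 44.02 CPM at 1 h and 11, 8.87, 14.2 and 46.2 CPM in sham (log2 change -5.30 ± 1.00, adjusted p = 0.000275; -7.09 without old 1 day 1). Old sham 4 held several times more than the other sham libraries, within the range of 1 h.

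Of 16 circadian clock genes, 4 fell and 0 rose (median -0.54), a share of falls near the 20.9% of all genes. Without old 1 h 2 or without old 1 h 4, 2 fell. Per1, a clock gene also induced by stress, had 139, 294, 259 and 256 CPM at 1 day and 372, 412, 373 and 520.1 CPM at 1 h (log2 change -0.82 ± 0.22, adjusted p = 0.00491), with no overlap. Nr1d1, the repressor REV-ERB alpha, had 106, 85.5, 123 and 123 CPM at 1 day, 127, 288, 116 and 303 CPM at 1 h and 289, 257, 299 and 260.1 CPM in sham (log2 change -0.93 ± 0.29, adjusted p = 0.0127), a call lost without old 1 h 2 (-0.74) or old 1 h 4 (-0.70). Of 13 mitochondrial mRNAs, 3 fell and 0 rose (median -0.39), a share of falls near the 20.9% of all genes. The count of falls was 8 with the GC trend removed, 7 with DESeq2, 6 with only the 8 libraries fitted and 1 with limma on TPM. These mRNAs made up 2.47% to 3.07% of counts in old 1 day libraries and 3.18% to 4.26% in old 1 h libraries. COX3, a subunit of cytochrome oxidase, had 1557, 1531, 1320.5 and 1275 CPM at 1 day and 1927, 2438, 2047 and 1818 CPM at 1 h (log2 change -0.53 ± 0.14, adjusted p = 0.00356), and COX1 had 9025, 9681, 8191 and 7834 CPM at 1 day and 11065, 14222, 11771 and 10376 CPM at 1 h (log2 change -0.45 ± 0.14, adjusted p = 0.00992). Of 20 nuclear-encoded oxidative phosphorylation genes, 1 rose and 1 fell (median -0.09).

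Many genes of cell division rose less in old than in young lungs. DNA replication starts from origins licensed by the MCM helicase, and kinases and motor proteins then carry the cell through mitosis. Of 22 replication genes, 10 rose and 0 fell in old lungs between the times (median 0.62), and 21 rose in young lungs (median 1.87), where 24.5% of all genes rose and 22.1% fell. Of 20 mitosis genes, 0 rose and 0 fell in old lungs (median 0.26; 0 at an unadjusted p under 0.05, and 0 called with DESeq2 or limma) and 20 rose in young lungs (median 2.35). The difference itself, the old change minus the young change, was called lower for 11 replication and 13 mitosis genes and higher for 0 and 0. Over all genes that difference was called for 827 genes higher (4.20%) and 558 lower (2.83%). The old counts leaned on 1 library: without old 1 day 1, 3 replication genes rose, 2 fell and 1 mitosis gene fell, and without old 1 h 4, 6 replication genes rose. With only the 8 libraries fitted, 4 rose.

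**Figure D4:**
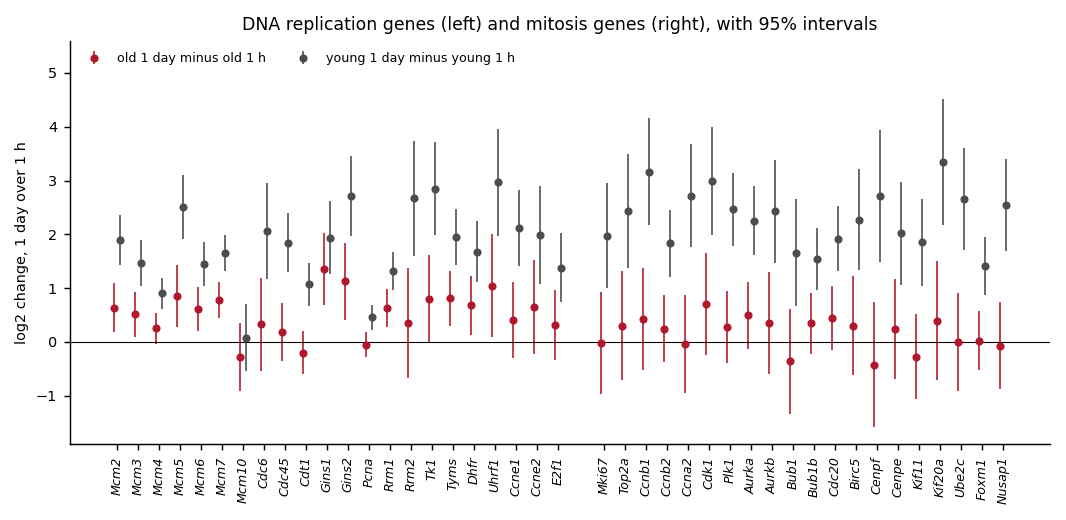
Log2 change from 1 h to 1 day of 22 DNA replication genes (left) and 20 mitosis genes (right), old 1 day minus old 1 h in red and young 1 day minus young 1 h in grey, with 95% confidence intervals from the fit over 24 libraries. Mitosis genes had a median of 0.26 in old and 2.35 in young lungs.

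Mcm5, a subunit of the MCM helicase, had 40.4, 13.6, 16.5 and 17.4 CPM in old 1 day libraries, 14.6, 12.7, 11.9 and 9.61 CPM in old 1 h libraries and 9.59, 8.98, 13.6 and 10.6 CPM in old sham libraries. The rise (log2 change 0.85 ± 0.28, adjusted p = 0.0167) was lost without old 1 day 1 (0.38) or old 1 h 4 (0.75). In young lungs Mcm5 averaged 82.5 ± 24.2 CPM at 1 day and 14.5 ± 2.45 CPM at 1 h (SD, n = 4 each), a log2 change of 2.51 ± 0.29 (adjusted p = 9.98e-07), and the ages differed by -1.66 ± 0.39 (adjusted p = 0.0171). Mcm7, another subunit, had 48.2, 25.9, 28.9 and 29.6 CPM at 1 day and 18.8, 21.3, 20.2 and 17.5 CPM at 1 h in old lungs (log2 change 0.77 ± 0.16, adjusted p = 0.000598). Gins1, a partner of the helicase, had 4.97, 2.38, 1.97 and 3.45 CPM at 1 day and 1.28, 0.809, 1.38 and 1.51 CPM at 1 h (log2 change 1.36 ± 0.32, adjusted p = 0.00175), and Rrm1, a subunit of ribonucleotide reductase, had 54.95, 37.96, 39.7 and 39.9 CPM at 1 day and 25.97, 31.9, 26.9 and 26.8 CPM at 1 h (log2 change 0.63 ± 0.17, adjusted p = 0.00495). Old 1 day 1 was the highest library in all 4 genes. The windows of Mcm3 (chr1:20820263-20820562, minus strand), Mcm5 (chr8:75109259-75109558, plus strand) and Mcm6 (chr1:128359656-128359955, minus strand) are shown because these helicase genes share an E2F-type site, TTTGGCGC or its reverse complement GCGCCAAA, in capitals. Of 17 replication genes with a window, 4 held it on either strand, against 0.585% of all genes with a window. These were Mcm3, Mcm5, Mcm6 and Cdt1, and the windows shown were picked because they hold it. Mcm7, Gins1 and Rrm1 were not among them. A match is a description of the letters and not a bound site.
Mcm3: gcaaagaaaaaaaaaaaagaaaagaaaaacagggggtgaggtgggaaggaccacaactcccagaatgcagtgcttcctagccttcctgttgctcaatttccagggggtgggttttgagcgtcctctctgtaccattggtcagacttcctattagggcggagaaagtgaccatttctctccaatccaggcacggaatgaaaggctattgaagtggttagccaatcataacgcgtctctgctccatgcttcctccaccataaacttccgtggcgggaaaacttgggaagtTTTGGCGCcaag
Mcm5: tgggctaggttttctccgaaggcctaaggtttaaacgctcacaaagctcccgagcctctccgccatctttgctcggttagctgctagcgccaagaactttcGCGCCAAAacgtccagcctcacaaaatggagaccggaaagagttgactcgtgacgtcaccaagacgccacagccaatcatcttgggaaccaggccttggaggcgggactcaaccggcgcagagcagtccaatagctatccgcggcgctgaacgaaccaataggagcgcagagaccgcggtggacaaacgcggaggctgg
Mcm6: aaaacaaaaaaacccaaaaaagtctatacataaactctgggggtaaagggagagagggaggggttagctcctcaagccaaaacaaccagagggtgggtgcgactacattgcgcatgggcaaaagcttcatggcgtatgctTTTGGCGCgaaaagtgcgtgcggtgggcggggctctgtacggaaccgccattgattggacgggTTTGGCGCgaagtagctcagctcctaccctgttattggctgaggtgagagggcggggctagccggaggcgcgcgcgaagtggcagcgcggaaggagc

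Mitosis genes showed the same split by age without a call in old lungs. Cdk1, the mitotic kinase, had 9.996, 2.29, 1.88 and 2.38 CPM in old 1 day libraries and 2.95, 2.86, 2.88 and 1.48 CPM in old 1 h libraries (log2 change 0.71 ± 0.46, interval -0.25 to 1.66). In young lungs it averaged 16.7 ± 9.15 CPM at 1 day and 2.1 ± 0.465 CPM at 1 h. Without old 1 day 1 the log2 change in old lungs was -0.22. Aurka, a spindle kinase, had 4.52, 2.86, 2.64 and 2.66 CPM at 1 day and 2.53, 2.92, 1.77 and 1.801 CPM at 1 h in old lungs, and differed between the ages by -1.76 ± 0.42 (adjusted p = 0.0182). Cdc20, an activator of the anaphase-promoting complex, had 8.71, 4.67, 4.55 and 5.32 CPM at 1 day and 3.88, 6.003, 4.81 and 2.44 CPM at 1 h in old lungs. Old 1 day 1 was the highest of these old libraries in all 3 genes, and the other 1 day libraries lay within the 1 h range. Cdkn1a went the other way: in young lungs it averaged 133 ± 25.99 CPM at 1 day and 475 ± 111 CPM at 1 h, a called fall, and the ages differed by 1.98 ± 0.42 (adjusted p = 0.0111).

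Among the other genes named, the change at 1 day relative to 1 h was higher in old than in young lungs for Krt7 (difference 0.90 ± 0.15, adjusted p = 0.00319), Tgm2 (0.96 ± 0.20, adjusted p = 0.00876), Tgfa (0.80 ± 0.17, adjusted p = 0.0111) and Angptl4 (1.98 ± 0.41, adjusted p = 0.0101). Atf4 fell less in old lungs (0.77 ± 0.16, adjusted p = 0.0107). Prf1 (-1.53 ± 0.29, adjusted p = 0.00726), Cr2 (-2.76 ± 0.62, adjusted p = 0.0135; -3.43 without old 1 day 1) and H2-Ob (-1.70 ± 0.41, adjusted p = 0.0195) were lower at 1 day relative to 1 h in old lungs than in young ones. For Hspa1a, Arc, Arg1, Timp1, Lcn2 and the ciliated and cardiac muscle genes named above, the difference was not called. Of the called age differences 59.7% were higher, against 46.7% with DESeq2, 48.3% with DESeq2-type size factors and 74.8% with only the groups compared. The count of age differences depended on single libraries, from 327 to 1521 higher and 268 to 1567 lower when 1 library was left out, with both highest counts without old 1 day 1.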

How the data were processed

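RNA of 24 mouse lung libraries was sequenced, 4 in each of 6 groups of age and treatment. Per the submitters' processing notes, the tools were HISAT2 and StringTie and the genome GRCm38 (mm10), with no versions given. The authors deposited a table of 129299 transcripts with estimated counts, FPKM (per length and depth) and TPM (per length and a fixed total). From 98.15% to 98.79% of deposited count values under 50 equalled the rounded-up FPKM-based estimate, so the counts were handled as model-based expected counts, and were rounded to whole numbers after summing over the transcripts of each of 45777 symbols. Levels rest on totals of about 29144117 to 43600154 estimated reads a library in the old groups, and intervals of single values cover no more than the spread between libraries.

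Genes passing filterByExpr (minimum count 10; 19690 kept, 26087 left out) were fitted with edgeR 4.0.16 in R 4.3.3 by TMM normalization and robust quasi-likelihood tests, with 6 group means over all 24 libraries, two-sided, and Benjamini-Hochberg adjustment over all genes. The biological coefficient of variation was 23.2%. Alternatives used DESeq2 1.42.0, limma 3.58.1 on log2(TPM + 1), other size factors and filters, the 8 or 16 libraries of a comparison alone, a replicate block, and each library left out in turn. A fit with the GC trend removed was chosen after seeing the data.

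The 39 lists (642 entries, 613 different genes) and the genes named were chosen with earlier results of these data known, so no list count is independent evidence. Genes were named from a pool of 160 given by rules of size and p. By size it took the 10 largest rises and 10 largest falls without overlap. It also took the 8 largest rises and 5 largest falls that resolved, persisted or came late. All of these had at least 5 CPM, and symbols of predicted genes and clones were skipped. Persisting genes were called against sham at both times, with an absolute log2 change under 0.5 between the times. Every list gave its 3 lowest in p, and 8 genes were taken by name. The text gives values for 115 genes, of which Hsph1 is outside the pool. Mcm3, Mcm6 and Cdt1 are also outside it and are named for the motif alone, without values. Promoter windows are from RefSeq.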

Additional observations from a re-analysis of the deposited data

Results flagged for a closer look

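For the 115 genes with values given, each group of 4 libraries was searched for a library far from the others. The mark was a gap to its nearest neighbour that exceeds Dixon's 95% critical value as a share of the range of the group. This held in 44 of 345 groups of values. Chance gives it in about 1 of 20 groups, and genes of a library are not independent of each other. The part of single libraries in the comparisons is given by leaving them out, above and below.

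Library old 1 day 1 stood apart for 9 genes, given with the range of the other old 1 day libraries. It had Trem2 23.99 CPM (6.79 to 8.25 CPM), Csrp3 3.85 CPM (0.222 to 0.581 CPM) and Actc1 62.7 CPM (7.78 to 11.2 CPM). It also had H2-Eb1 444 CPM (234 to 247 CPM), Mcm7 48.2 CPM (25.9 to 29.6 CPM) and Rrm1 54.95 CPM (37.96 to 39.9 CPM). Further values were Mcm5 40.4 CPM (13.6 to 17.4 CPM), Aurka 4.52 CPM (2.64 to 2.86 CPM) and Cdk1 9.996 CPM (1.88 to 2.38 CPM).

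Library old 1 day 2 stood apart for 4 genes, given with the range of the other old 1 day libraries. It had Atf3 134 CPM (17.5 to 28.1 CPM), Fosb 231 CPM (2.597 to 34.5 CPM) and Camp 69.2 CPM (0.318 to 3.04 CPM). It also had Sox17 181 CPM (89.5 to 104 CPM).

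Library old 1 day 3 stood apart for 5 genes, given with the range of the other old 1 day libraries. It had Ptx3 143 CPM (0.825 to 2.32 CPM), Cxcl5 78.2 CPM (8.57 to 14.2 CPM) and Ighv11-2 237 CPM (0.603 to 8.54 CPM). It also had Igkv14-126 558 CPM (0.73 to 22.1 CPM) and Igkv11-125 162 CPM (0 to 0.581 CPM).

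Library old 1 h 1 stood apart for 10 genes, given with the range of the other old 1 h libraries. It had Birc3 188 CPM (223 to 224 CPM), Gadd45a 67.6 CPM (49.98 to 52.3 CPM) and Camp 76.5 CPM (0.193 to 1.38 CPM). It also had Ltf 412 CPM (96.01 to 138 CPM), Orm1 3.49 CPM (1.38 to 1.64 CPM) and Ighv11-2 8.39 CPM (0.5895 to 1.65 CPM). Further values were Igkv14-126 24.1 CPM (1.64 to 4.98 CPM), Igkv11-125 2.56 CPM (0.225 to 0.622 CPM), Ighv5-9-1 30.9 CPM (0.5145 to 2.29 CPM) and Ighv4-1 41.2 CPM (0.4585 to 2.154 CPM).

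Library old 1 h 2 stood apart for 2 genes, given with the range of the other old 1 h libraries. It had Psmb5 42.1 CPM (45.7 to 46.2 CPM) and Rrm1 31.9 CPM (25.97 to 26.9 CPM).

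Library old 1 h 4 stood apart for 2 genes, given with the range of the other old 1 h libraries. It had Sox17 45.8 CPM (56.7 to 58.98 CPM) and Cdk1 1.48 CPM (2.86 to 2.95 CPM).

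Library old sham 2 stood apart for 4 genes, given with the range of the other old sham libraries. It had Hbegf 72.1 CPM (38.8 to 42.7 CPM), Hdc 121 CPM (86.7 to 90.1 CPM) and Saa1 0.165 CPM (0 CPM). It also had Gpnmb 27.4 CPM (19.7 to 20.8 CPM).

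Library old sham 3 stood apart for 3 genes, given with the range of the other old sham libraries. It had Cyp1a1 68.4 CPM (1.598 to 2.48 CPM), Marco 30.8 CPM (1.98 to 4.08 CPM) and COX3 1501 CPM (1951 to 2041 CPM).

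Library old sham 4 stood apart for 5 genes, given with the range of the other old sham libraries. It had Ifit3 36.8 CPM (60.9 to 63.6 CPM), Csrp3 46.2 CPM (8.87 to 14.2 CPM) and Actc1 493 CPM (107 to 125 CPM). It also had Igkv11-125 1.64 CPM (0.0925 to 0.193 CPM) and Igkv4-57-1 42.9 CPM (0.616 to 4.69 CPM).

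The change from 1 h to 1 day differed between the ages for 26 of the 115 genes, by a test of the difference itself (edgeR's quasi-likelihood test, log2 change in old minus log2 change in young, 4 libraries in each of the 4 groups). It was higher in old lungs for Plaur (1.02 ± 0.29, adjusted p = 0.0404), Tgfa (0.80 ± 0.17, adjusted p = 0.0111), Atf4 (0.77 ± 0.16, adjusted p = 0.0107) and Asns (0.70 ± 0.21, adjusted p = 0.0427). It was also higher for Osgin1 (1.06 ± 0.26, adjusted p = 0.0211), Csf3 (3.87 ± 0.98, adjusted p = 0.0235), Cdkn1a (1.98 ± 0.42, adjusted p = 0.0111) and S100a14 (1.07 ± 0.32, adjusted p = 0.044). Further genes with a higher value were Col4a2 (0.76 ± 0.21, adjusted p = 0.0322), Krt7 (0.90 ± 0.15, adjusted p = 0.00319), Tgm2 (0.96 ± 0.20, adjusted p = 0.00876) and Zmat3 (0.53 ± 0.15, adjusted p = 0.0398). The remaining ones were Psmc1 (0.40 ± 0.09, adjusted p = 0.0108) and Angptl4 (1.98 ± 0.41, adjusted p = 0.0101). It was lower in old lungs for Hc (-1.21 ± 0.36, adjusted p = 0.0444), Gas1 (-1.33 ± 0.37, adjusted p = 0.0356), H2-Ob (-1.70 ± 0.41, adjusted p = 0.0195) and Fcrla (-1.51 ± 0.44, adjusted p = 0.0408). It was also lower for Cr2 (-2.76 ± 0.62, adjusted p = 0.0135), Cd8b1 (-0.93 ± 0.25, adjusted p = 0.0298), Prf1 (-1.53 ± 0.29, adjusted p = 0.00726) and Mcm7 (-0.88 ± 0.23, adjusted p = 0.0245). Further genes with a lower value were Mcm5 (-1.66 ± 0.39, adjusted p = 0.0171), Aurka (-1.76 ± 0.42, adjusted p = 0.0182), Cdc20 (-1.48 ± 0.40, adjusted p = 0.0309) and Cdk1 (-2.28 ± 0.65, adjusted p = 0.0389). Of these calls, 9 held under every alternative run, and 16 were lost under at least 1 that changed the processing. 12 held whichever of the 16 libraries was left out, and 14 were lost in at least 1 such fit: Plaur in 13, Asns in 12, Osgin1 in 1, Hc in 10, Csf3 in 2, Gas1 in 8, S100a14 in 12, Col4a2 in 11, Zmat3 in 11, Fcrla in 11, Cd8b1 in 6, Mcm7 in 1, Cdc20 in 8 and Cdk1 in 12 of 16 fits.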

How the results depend on the processing

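Between old 1 day and old 1 h, 4753 genes were higher and 4106 lower. The counts were 4301 and 4675 with DESeq2, 4158 and 4470 with DESeq2-type size factors, 5969 and 3489 with limma on TPM, 3545 and 3460 with only the 8 libraries fitted, and 4196 to 4543 and 3664 to 4066 when 1 library was left out. Of the 115 genes with values given, 89 kept direction and call in this comparison under every alternative run. Against sham, limma on TPM called 5110 genes lower at 1 h, in place of 2487, with 25.6% of called genes higher in place of 49.9%. Counts of age differences moved widely: 439 higher without a low-count filter, 294 higher and 99 lower with only the groups compared, 1159 lower with DESeq2, and 327 to 1521 higher and 268 to 1567 lower when 1 library was left out, with both highest counts without old 1 day 1. The cause was not tested. With only the 8 libraries fitted, fewer members rose among recruited macrophage (7), interferon-stimulated (3), inflammatory (0), alveolar macrophage (1), alveolar type 1 (2), endothelial (2), hypoxia (3), p53 (3) and ribosome biogenesis genes (7), and 1 clock gene fell.

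Directions that turned were in genes that were not called or that rested on 1 library. For Camp the log2 change of old 1 day over old 1 h was 0.0178 with the replicate block, 0.77 with limma, and -3.72 to 4.95 when 1 library was left out. For Adamts4 it was -0.0149 with DESeq2, -0.0151 with its size factors, -0.19 with the block, -0.42 with limma, -0.0192 with the GC trend removed, and -0.62 to 0.40 when 1 library was left out. Limma gave -0.0147 for Ltf and -0.20 for Csf3, and the block gave -0.0766 for Cyp1a1. Leaving 1 library out gave -4.68 to 0.33 for Ptx3, -0.13 to 1.08 for Ltf, -0.58 to 0.72 for Csf3, -0.22 to 0.69 for Cyp1a1, -1.64 to 0.23 for Cxcl1 and -0.13 to 0.45 for Cdkn1a. It gave -0.09 to 5.52 for Igkv14-126, -1.98 to 6.56 for Igkv11-125 (-1.13 to 8.18 against sham) and -0.22 to 0.93 for Cdk1. The cause was not tested.

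Same-numbered libraries were not stated to be paired. The correlation of their deviations between old 1 day and old 1 h was -0.0497, -0.125, -0.0504 and 0.108, and replicate 4 alone correlated best with its own number. The fit with the replicate number as a block called 4716 genes higher and 4069 lower. Depth limits genes near 0 CPM, and 26087 symbols with low counts were not tested.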
